A study of Homo sapiens with 8 samples.

Results

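The levels of 10 genes of the circadian clock were followed in a human esophageal epithelium given an inhibitor of the hydroxylases that restrain hypoxia-inducible factors (HIF). They were taken by name from the deposited expression table, where 10 of 10 were found among 25369 listed genes: BHLHE40, BHLHE41, PER1, PER2, PER3, CRY1, CRY2, NR1D2, ARNTL and CLOCK. The study sequenced RNA from 8 libraries of EPC2-hTERT, a wild-type esophageal epithelial cell line immortalised with telomerase and grown in layers at an air-liquid interface. One group of 4 received DMSO vehicle and the other 4 received 1 mM dimethyloxalylglycine (DMOG), both for 18 h. All cultures had been confluent for 2 days, in 1.8 mM CaCl2 for 5 days and in contact with air for 4 days. All libraries come from 1 cell line and 1 time after treatment, and neither a clock time of harvest nor a step that sets the clocks of the cells to 1 phase is given in the sources used here. Whether replicates are separate cultures is not said in the labels. The p-values therefore reflect only the scatter among these libraries, and that scatter may be technical.

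The mammalian clock is a loop of transcription. ARNTL (also called BMAL1) and CLOCK pair through their PAS domains, bind E-box sequences and switch on the PER and CRY genes, whose proteins return to the nucleus and block that pair. BHLHE40 and BHLHE41 (DEC1 and DEC2) are repressors that bind E-boxes themselves, and NR1D2 (REV-ERBβ) is a nuclear receptor that represses ARNTL through elements shared with the ROR receptors. HIF alpha subunits belong to the same bHLH-PAS family as ARNTL and CLOCK, and BHLHE40 is known as a gene that hypoxia induces. DMOG resembles 2-oxoglutarate and blocks the prolyl hydroxylases that mark HIF alpha for destruction, along with other enzymes that use 2-oxoglutarate.

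RefSeq (GRCh38.p14) gave 15 windows of 300 bases, lying mostly upstream of an annotated start, for the 10 genes. Stretches of 6 of them, chosen after the matches were seen, are shown as examples of the elements through which members of the loop are known to act on each other. The E-box of BHLHE41 and the AGGTCA matches of PER1 and CRY2 are counted but not shown. Capitals mark the canonical E-box CACGTG, the D-box TTANGTAA bound by DBP, TEF and NFIL3, or, in ARNTL, the half-site AGGTCA bound by ROR and REV-ERB receptors. Both strands were searched, and each stretch runs along its gene's own strand.
BHLHE40: tccaaCACGTGagactcatgtgatga
PER1: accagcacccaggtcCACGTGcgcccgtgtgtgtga
NR1D2: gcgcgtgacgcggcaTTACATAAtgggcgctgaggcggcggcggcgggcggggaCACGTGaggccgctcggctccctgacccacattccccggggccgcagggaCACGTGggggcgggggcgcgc
PER3: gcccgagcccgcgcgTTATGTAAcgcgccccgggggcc
PER2: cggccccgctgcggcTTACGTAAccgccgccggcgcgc
ARNTL: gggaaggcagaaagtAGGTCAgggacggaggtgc

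The BHLHE40 stretch is chr3:4979187-4979212 on the plus strand, PER1 chr17:8152557-8152592 on the minus strand and NR1D2 chr3:23945912-23946036 on the plus strand. PER3 is chr1:7784099-7784136 (plus), PER2 chr2:238288591-238288628 (minus) and ARNTL chr11:13277806-13277839 (plus). The E-box of BHLHE40 began 245 bases before the start and that of PER1 173 before it. NR1D2 held a D-box 194 bases before a start and E-boxes 155 and 105 bases before it. The D-box of PER3 lay 177 bases and that of PER2 3 bases before a start, and the ARNTL half-site 31 bases after one. CACGTG was found in 4 of 15 windows of the clock genes and in 7.26% of all 35116 RefSeq windows of this length, and the D-box in 3 of 15 and 2.18%. The half-site AGGTCA was in 4 of 15 and 13.8%. The variant CACGTT was in 4 of 15 windows and 5.34% of all, those of PER2, CRY1, CRY2 and CLOCK. The 5-letter cores of hypoxia response elements were also searched, ACGTG in 9 of 15 and 21.4%, and GCGTG in 7 of 15 and 36.5%. ACGTG lies within CACGTG and, on the opposite strand, within CACGTT, so it is no separate count. Its windows were those with CACGTG or CACGTT and a further window of CRY2. A match describes letters only, and no binding was measured here.

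The library totals implied by the RPKM values (reads per kilobase of gene, scaled to the library total) were 31245695 to 39931833 reads. All 8 markers of stratified squamous keratinocytes were at 1 RPKM or more in every library. The summed level was 10419 to 18573 RPKM with vehicle and 14337 to 14772 with DMOG. Of 7 fibroblast markers only COL1A1 reached 1 RPKM, so that the list summed to 8.76 to 14.1 RPKM with vehicle and 19.0 to 32.0 with DMOG, with DCN and LUM at 0. Of 4 leukocyte markers only CD68 did (42.7 to 73.4 and 60.9 to 93.1 RPKM in sum). The 4 endothelial markers summed to 1.44 to 1.97 and 0.870 to 1.69 RPKM with CDH5 at 0, the 4 columnar ones to at most 0.0283 RPKM with CDX2 and VIL1 at 0, and the 3 melanocyte ones to 0.353 to 0.952 and 0.610 to 0.935 RPKM. The part of these other lists in the results was not tested. DMOG replicate 2 stood near the vehicle libraries for HIF targets. CA9, a carbonic anhydrase induced by HIF, stood at 0.925, 1.29, 0.129 and 0.586 RPKM in vehicle replicates 1 to 4 and at 25.2, 2.56, 9.97 and 57.5 RPKM in DMOG replicates 1 to 4. The clock genes are therefore given over all 8 libraries and over the 6 libraries (replicates 1, 3 and 4) of the authors' own comparison. Why replicate 2 is not in the latter was not given in the sources used here.

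Of the 10 clock genes, 9 passed the filter of 1 RPKM in at least 4 libraries, and 3 of them rose in the 6 libraries: PER3, CRY2 and NR1D2, by 0.54 to 0.64 on the log2 scale. No clock gene fell with this scaling (0 of 9). The percentage of all 11122 tested genes called was 13.7 higher and 16.1 lower, and the median log2 fold change was 0.23 over the 9 clock genes and -0.00 over all genes. No excess of the 9 over that background was tested. These calls come from limma (limma-trend) on log2(RPKM + 1) after scaling by median-ratio factors, with Benjamini-Hochberg adjustment over all tested genes and a threshold of 0.05. With RPKM as deposited the median gene lay at -0.26 and the picture shifted as a whole: 0 clock genes were higher and 3 were lower, PER2, ARNTL and CLOCK. Over all genes the factors gave 1526 higher and 1792 lower and the deposited scale 682 and 3836. Over 8 libraries limma called 0 clock genes and 0 genes of all in either direction (background 0 and 0 percent), with 3 clock genes higher and 0 lower, and 1556 and 1813 of all genes, at an unadjusted p under 0.05. The smallest limma adjusted p of any gene over 8 libraries was 0.118, a value shared by genes of different unadjusted p. Limma-voom on recovered reads over 8 libraries also called 0 and 0. Without DMOG replicate 2, the other 7 libraries gave 3 clock genes higher and 0 lower. Without vehicle replicate 1, 3 or 4 or DMOG replicate 1 or 4, the 6-library count of higher clock genes fell from 3 to 0, and without DMOG replicate 3 it was 3. A clock gene was lower without vehicle replicate 3 (PER2) and 1 without DMOG replicate 3 (CLOCK).

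**Figure D1:**
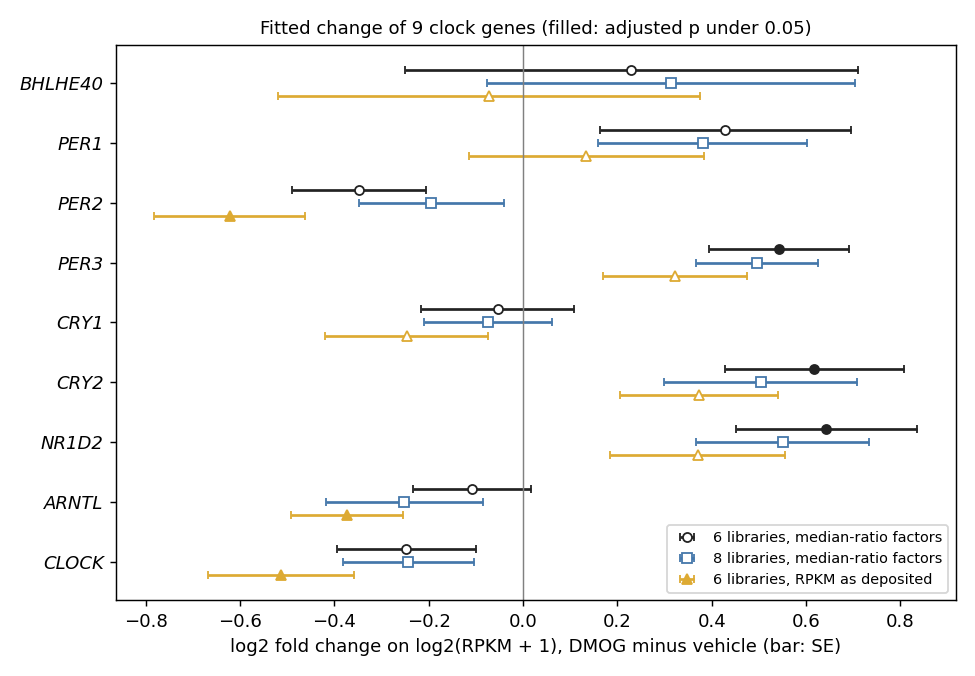
Log2 fold change, DMOG minus vehicle on log2(RPKM + 1), of the 9 tested clock genes with its standard error as a bar, for 6 and 8 libraries with median-ratio factors and 6 libraries with RPKM as deposited; filled symbols passed an adjusted p of 0.05. PER3, CRY2 and NR1D2 are filled only with factors in 6 libraries, PER2, ARNTL and CLOCK only with RPKM as deposited, where every estimate lies further to the left.

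Without a model, the groups were compared by whether every DMOG value lay on 1 side of every vehicle value. In 6 scaled libraries 3 of the 9 clock genes did so upward (24.5 percent of all genes) and 1 downward, PER2 (26.8 percent). In 8 scaled libraries 1 did so upward, PER3 (5.04 percent), and 0 downward (7.33 percent). With RPKM as deposited, 0 lay upward and 3 downward in 6 libraries (9.99 and 45.6 percent), and 0 upward and 1 downward, ARNTL, in 8 libraries (2.27 and 12.8 percent). These shares lie near those of all genes, so the counts are no result about the clock genes as a set. Because the tissue was sequenced in bulk, fewer cells of a type and less RNA per cell cannot be told apart.

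In vehicle libraries, BHLHE40 was the most abundant of the 10 per kilobase, at 150 ± 33.6 RPKM (SD, n = 4), followed by PER1 at 29.9 ± 6.37 RPKM. Neither range met that of its neighbour in the order. PER2 (10.5 ± 2.91), CLOCK (8.99 ± 0.717), ARNTL (8.75 ± 1.91) and NR1D2 (7.52 ± 1.43 RPKM) came next. PER2 lay below PER1 without overlap, and each of the other 3 overlapped the gene above it. CRY2 (3.45 ± 0.482), PER3 (2.27 ± 0.460) and CRY1 (2.09 ± 0.211 RPKM) followed, again with each range overlapping the next. BHLHE41 lay last at 0.255 ± 0.140 RPKM, below every other clock gene.

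**Figure D2:**
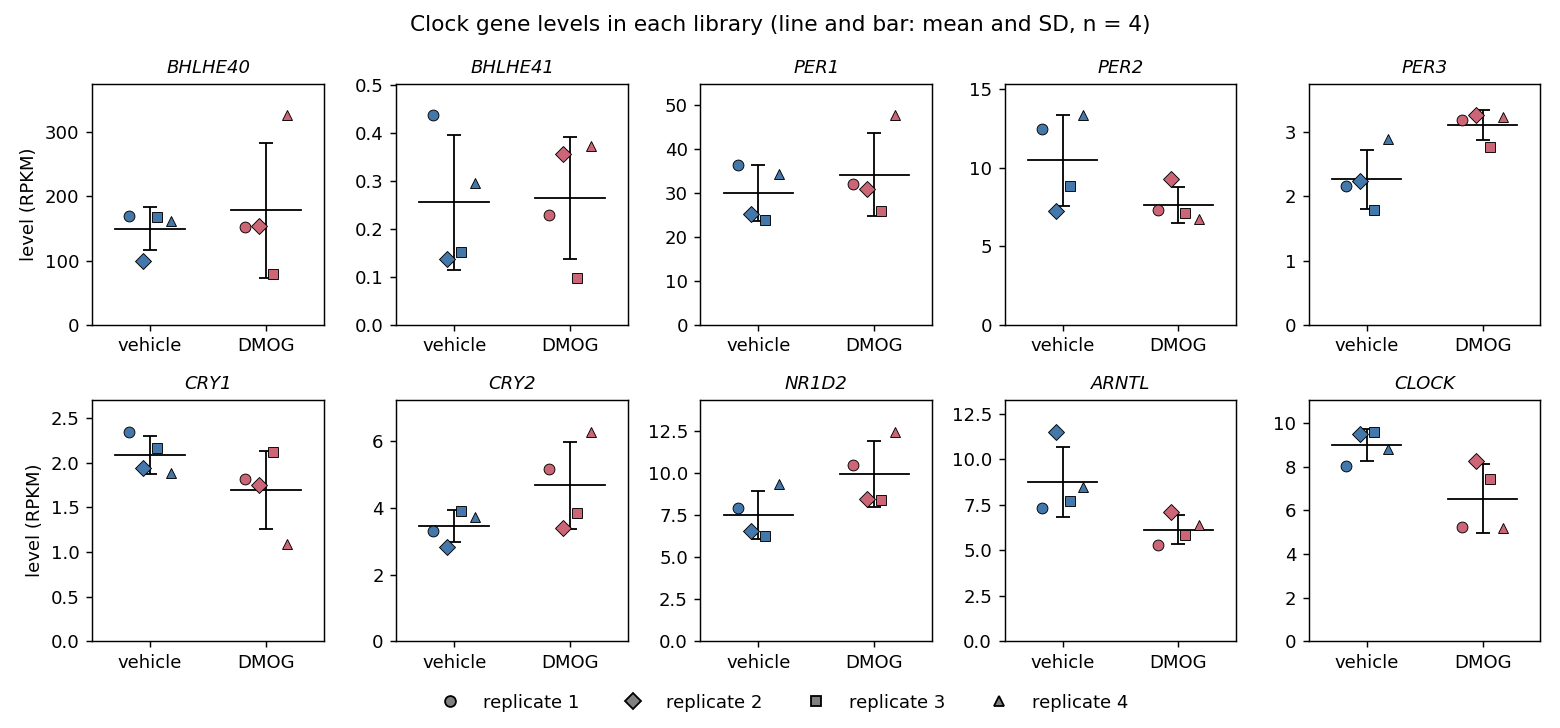
Level in RPKM as deposited of each clock gene in each library, by group, with marker shape for the replicate number and the mean and SD (n = 4) as a line and bar; each panel has its own axis from 0. ARNTL is the gene whose DMOG libraries (5.26 to 7.08 RPKM) all lie below the vehicle libraries (7.30 to 11.5), and the BHLHE40 libraries with DMOG spread from 79.4 to 327 RPKM.

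The E-box repressor BHLHE40 (chromosome 3, 5021097 to 5026865 on hg19) did not separate the groups. It stood at 170, 99.8, 168 and 162 RPKM in vehicle replicates 1 to 4 and at 153, 154, 79.4 and 327 RPKM in DMOG replicates 1 to 4. DMOG replicate 4 was the highest of all 8 libraries and DMOG replicate 3 the lowest, so the DMOG range enclosed the vehicle range. Its log2 fold change was 0.23 ± 0.48 (SE, limma adjusted p = 0.731, 95% interval -0.91 to 1.37) in 6 libraries, but -0.07 as deposited and -0.33 without DMOG replicate 4. In 8 libraries it was 0.31 ± 0.39 (adjusted p = 0.589), and -0.08 without that library. The order of DMOG replicates 1, 3 and 4 was that of CA9 and of EGLN3, a HIF prolyl hydroxylase that is itself a HIF target, at 119, 9.93, 35.6 and 334 RPKM in DMOG replicates 1 to 4. BHLHE41, PER1, PER3, CRY2 and NR1D2 had the same order, so it is not particular to BHLHE40. In vehicle replicates 1, 3 and 4, PER3 and NR1D2 also had that order, while BHLHE40, BHLHE41, PER1 and CRY2 did not. The share of all genes with this order was not taken, so it is no result about the clock genes. Whether the order follows the HIF response was not tested. In DMOG replicate 2 CA9 and EGLN3 were at their lowest DMOG level, while BHLHE40 stood at 154 RPKM, beside 153 in DMOG replicate 1. EGLN3 differed from BHLHE40 in that its vehicle libraries, at 5.46 to 13.2 RPKM, lay below DMOG replicates 1, 3 and 4. In 6 libraries CA9 rose by 4.28 ± 0.58 on the log2 scale (limma adjusted p = 0.00601) and EGLN3 by 3.74 ± 0.78 (0.0152). In 8 libraries CA9 was at 3.36 ± 0.77 and EGLN3 at 2.98 ± 0.94 (limma adjusted p = 0.118 for both).

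Its paralog BHLHE41 (chromosome 12, 26272959 to 26278003) rested on 12 to 54 reads per library and did not pass the filter. It stood at 0.437, 0.137, 0.152 and 0.295 RPKM with vehicle and at 0.229, 0.356, 0.0982 and 0.373 RPKM with DMOG. The groups overlapped over nearly their whole range. With no filter its 6-library log2 fold change was -0.00 ± 0.12 (limma adjusted p = 1) and its 8-library value 0.06 ± 0.10 (0.746), on a scale that understates changes at such low levels.

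The 3 PER genes encode the PERIOD proteins of the repressor complex, and their values went different ways. PER3 (chromosome 1, 7844489 to 7905240) stood at 2.16, 2.23, 1.78 and 2.89 RPKM with vehicle and at 3.19, 3.27, 2.77 and 3.23 RPKM with DMOG. DMOG replicate 3 lay just below vehicle replicate 4 and the other DMOG libraries lay above every vehicle library. After scaling the groups did not overlap. PER3 rose by 0.54 ± 0.15 in 6 libraries (log2, SE, limma adjusted p = 0.0338), with 0.32 as deposited (0.130). The adjusted p was 0.118, 0.104 and 0.0513 without vehicle replicates 1, 3 and 4, and 0.104 and 0.0649 without DMOG replicates 1 and 4. It was 0.0587 with no filter. PER3 passed in 6 of 13 alternatives of that comparison, the replicate block among them (limma adjusted p = 0.0170). In 8 libraries the log2 fold change was 0.50 ± 0.13 (adjusted p = 0.118, and 0.0219 without DMOG replicate 2).

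PER2 (chromosome 2, 239152679 to 239197207) stood at 12.5, 7.25, 8.80 and 13.3 RPKM with vehicle and at 7.30, 9.30, 7.12 and 6.71 RPKM with DMOG. DMOG replicates 1, 3 and 4 lay below vehicle replicates 1, 3 and 4, while the libraries numbered 2 were the lowest with vehicle and the highest with DMOG. In 6 libraries its log2 fold change was -0.35 ± 0.14 (limma adjusted p = 0.101). It passed the threshold with RPKM as deposited (-0.62, adjusted p = 0.0210) and without vehicle replicate 3 (-0.50, 0.0390). In 8 libraries it was -0.19 ± 0.15 (0.388).

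PER1 (chromosome 17, 8043788 to 8055753) stood at 36.3, 25.1, 23.7 and 34.4 RPKM with vehicle and at 32.0, 31.0, 25.9 and 47.7 RPKM with DMOG. DMOG replicate 4 was the highest library and the others lay within the vehicle range. Its log2 fold change was 0.43 ± 0.27 in 6 libraries (limma adjusted p = 0.246, 95% interval -0.20 to 1.06) and 0.38 ± 0.22 in 8 (0.256). The listed position of PER1 covers the small RNA gene MIR6883 for 78 bases on the same strand, and that gene had at most 6 reads in a library.

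CRY1 and CRY2 encode the cryptochromes, the partners of the PERIOD proteins. CRY2 (chromosome 11, 45868669 to 45904799) stood at 3.32, 2.82, 3.90 and 3.74 RPKM with vehicle and at 5.17, 3.40, 3.84 and 6.29 RPKM with DMOG. DMOG replicates 1 and 4 lay above all vehicle libraries, and DMOG replicates 2 and 3 lay among them. CRY2 rose by 0.62 ± 0.19 in 6 libraries (log2, SE, limma adjusted p = 0.0470), with 0.37 as deposited (0.114). The adjusted p was 0.149, 0.0882 and 0.126 without vehicle replicates 1, 3 and 4, and 0.125 and 0.0715 without DMOG replicates 1 and 4. Upper-quartile factors gave 0.0501, no filter 0.0875 and the filter of 0.3 RPKM in 3 libraries 0.0521. CRY2 passed in 4 of 13 alternatives of that comparison, the replicate block among them (limma adjusted p = 0.0427). Over 8 libraries the value was 0.50 ± 0.20 (0.144, and 0.0217 without DMOG replicate 2).

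CRY1 (chromosome 12, 107385143 to 107487635) stood at 2.35, 1.95, 2.17 and 1.89 RPKM with vehicle and at 1.81, 1.75, 2.12 and 1.09 RPKM with DMOG. DMOG replicate 4 was the lowest library, with 112 reads, and DMOG replicate 3 lay within the vehicle range. Its log2 fold change was -0.05 ± 0.16 in 6 libraries (limma adjusted p = 0.814, 95% interval -0.43 to 0.33) and -0.07 ± 0.14 in 8 (0.720). Without DMOG replicate 4 these were 0.10 and 0.02.

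NR1D2 (chromosome 3, 23986751 to 24022109), the receptor that represses ARNTL, stood at 7.94, 6.57, 6.23 and 9.36 RPKM with vehicle and at 10.5, 8.45, 8.37 and 12.5 RPKM with DMOG. DMOG replicates 1 and 4 lay above every vehicle library, and DMOG replicates 2 and 3 lay below vehicle replicate 4. Set against the vehicle library of the same number, the DMOG libraries stood 1.32, 1.29, 1.34 and 1.33 times as high as deposited, the narrowest spread of such ratios among the 10 genes. Libraries numbered 1 and 2 did not vary together over 8 libraries (correlations 0.07 and -0.02), so this spread is not read as a paired effect. NR1D2 rose by 0.64 ± 0.19 in 6 libraries (log2, SE, limma adjusted p = 0.0444), with 0.37 as deposited (0.147). The adjusted p was 0.121, 0.130 and 0.0743 without vehicle replicates 1, 3 and 4, and 0.117 and 0.0756 without DMOG replicates 1 and 4. With upper-quartile factors it was 0.0533 and with no filter 0.0861. NR1D2 passed in 5 of 13 alternatives of that comparison, the replicate block among them (limma adjusted p = 0.0105). The 8-library value was 0.55 ± 0.18 (0.118, and 0.0207 without DMOG replicate 2).

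The activator ARNTL (chromosome 11, 13299325 to 13408812) stood at 7.30, 11.5, 7.70 and 8.49 RPKM with vehicle and at 5.26, 7.08, 5.82 and 6.39 RPKM with DMOG. All 4 DMOG libraries lay below all 4 vehicle libraries, at 0.721, 0.614, 0.756 and 0.752 times the vehicle library of the same number. After scaling the groups overlapped, and the log2 fold change in 6 libraries was -0.11 ± 0.12 (SE, limma adjusted p = 0.525), against -0.37 (0.0406) as deposited. In 8 libraries the scaled value was -0.25 ± 0.17 (0.308).

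Its partner CLOCK (chromosome 4, 56294068 to 56413076) stood at 8.05, 9.49, 9.61 and 8.80 RPKM with vehicle and at 5.22, 8.27, 7.44 and 5.17 RPKM with DMOG. DMOG replicates 1, 3 and 4 lay below every vehicle library, and DMOG replicate 2 lay above vehicle replicate 1. In 6 libraries its log2 fold change was -0.25 ± 0.15 (limma adjusted p = 0.229), against -0.51 (0.0352) as deposited and -0.38 (0.0494) without DMOG replicate 3. It was -0.24 ± 0.14 (0.249) in 8 libraries. With RPKM as deposited, PER3 and NR1D2 stood above the vehicle library of the same number in 4 of 4 cases, and ARNTL, CLOCK and CRY1 in 0 of 4. The share of all genes with such counts was not taken, so they are no result about these genes. On that scale the median gene lay at -0.18 in 8 libraries. There 12.8 percent of all genes had every DMOG library below every vehicle library, and 2.27 percent had the reverse.

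Ratios of 2 genes within a library do not depend on how libraries are scaled. Of 36 pairs among the 9 tested clock genes, 5 pairs (13.9%) kept all 4 DMOG libraries apart from all 4 vehicle libraries. They set PER3 against CLOCK, ARNTL and PER2, and NR1D2 against ARNTL and PER2, in each case with the higher ratio under DMOG. The ratio of NR1D2 to ARNTL was 1.09, 0.570, 0.809 and 1.10 with vehicle and 1.99, 1.19, 1.44 and 1.95 with DMOG. That of PER3 to PER2 was 0.173, 0.308, 0.203 and 0.217 with vehicle and 0.437, 0.351, 0.389 and 0.482 with DMOG. DMOG replicate 2 lay on the DMOG side in all 5, but by little for NR1D2 to PER2, at 0.909 against 0.906 in vehicle replicate 2. Among all pairs of tested genes 11.6 percent separated 8 libraries in this way and 49.8 percent separated 6, where 10 of the 36 clock pairs (27.8%) did. The clock pairs thus separated about as often as any genes in 8 libraries, and their share in 6 lay below that of all pairs.

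**Figure D3:**
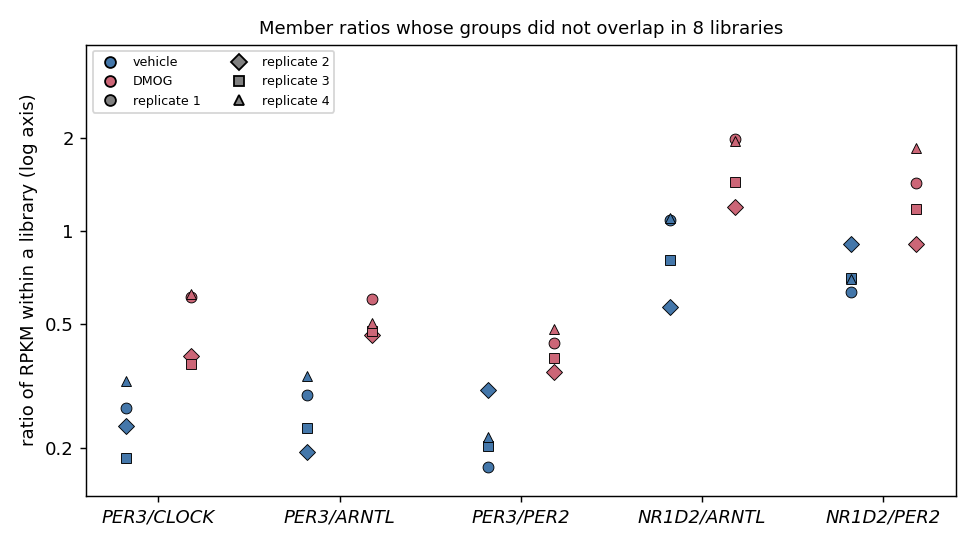
Ratio of RPKM within each library, on a log axis, for the 5 pairs of clock genes whose groups did not overlap, in blue for vehicle and red for DMOG, with marker shape for the replicate number. The ratio of NR1D2 to ARNTL runs from 0.570 to 1.10 with vehicle and from 1.19 to 1.99 with DMOG, while the ratio of NR1D2 to PER2 nearly meets between the libraries numbered 2.

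Around the core loop, 43 other genes were listed by role, 32 passed the filter, and in 6 libraries 5 rose and 3 fell (24 not called, median log2 fold change 0.18). Beside the 13.7 percent of all genes called higher and 16.1 percent called lower, these counts are no result about the list. With RPKM as deposited 1 was higher and 6 were lower, and with the replicate number as a block 11 were higher and 2 lower. Leaving out any of vehicle replicates 1 and 4 and DMOG replicate 1 left 1 higher and 1 lower. Leaving out vehicle replicate 3 left 2 higher, and leaving out DMOG replicate 3 gave 9 higher and 3 lower. Over 8 libraries 0 were called either way.

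Ubiquitin ligases send clock proteins to the proteasome. BTRC, the subunit that recognises phosphorylated PERIOD proteins, stood at 7.73, 6.74, 8.04 and 7.49 RPKM with vehicle and at 12.1, 8.26, 10.5 and 10.1 RPKM with DMOG. All DMOG libraries lay above all vehicle libraries, DMOG replicate 2 by the least. BTRC rose by 0.71 ± 0.11 in 6 libraries (limma adjusted p = 0.00738) and passed in 13 of 13 alternatives of that comparison. In 8 libraries it was at 0.59 ± 0.15 (0.118).

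Of 7 kinases that phosphorylate clock proteins 2 rose and 0 fell, against 13.7 and 16.1 percent of all genes, too few genes to read a difference from. Both are forms of casein kinase 1 that act on PERIOD proteins. CSNK1A1, another casein kinase 1 in the list, was at -0.0011 ± 0.10 in 6 libraries (limma adjusted p = 0.994). CSNK1E rose by 0.62 (limma adjusted p = 0.0185, 0.0678 as deposited), and its p was 0.0787 and 0.0710 without vehicle replicates 1 and 4 and 0.0662 without DMOG replicate 1. CSNK1D rose by 0.37 (0.0338), but its value as deposited was 0.07 (0.618). Its p was 0.111, 0.0654 and 0.131 without vehicle replicates 1, 3 and 4 and 0.103 without DMOG replicate 1. Over 8 libraries CSNK1E was at 0.41 ± 0.18 (0.167) and CSNK1D at 0.26 ± 0.12 (0.164).

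The nuclear receptor RORA, an activator of ARNTL, rose by 0.60 (limma adjusted p = 0.0488). TIMELESS, a replication fork protein related to the fly clock gene, fell by 0.47 (limma adjusted p = 0.0480). Both lay near the filter, RORA at 0.949 to 2.58 RPKM and TIMELESS at 1.03 to 3.09 RPKM over the 8 libraries. They passed in 4 and 5 of 13 alternatives of the 6-library comparison. RORA gave 0.0896 as deposited, 0.0888 with no filter, 0.0537 with the filter of 0.3 RPKM in 3 libraries and 0.0501 with a pseudocount of 0.1. TIMELESS gave 0.0557 with the replicate block, 0.0772 with no filter and 0.0527 with the filter of 0.3 RPKM. In 8 libraries RORA was at 0.39 ± 0.21 (0.220) and TIMELESS at -0.31 ± 0.17 (0.240), both with overlapping groups. With vehicle replicates 1, 3 and 4 left out in turn the p was 0.162, 0.0519 and 0.138 for RORA and 0.156, 0.0535 and 0.118 for TIMELESS. With DMOG replicates 1 and 4 left out it was 0.0789 and 0.0914 for RORA and 0.144 and 0.0922 for TIMELESS. The 3 tested D-box factors were not called. DBP, an activator, stood at 11.1, 7.57, 7.61 and 12.7 RPKM with vehicle and at 20.8, 14.9, 9.90 and 32.4 RPKM with DMOG. DMOG replicate 3 was the library among the DMOG ones that lay within the vehicle range. Its log2 fold change of 1.11 ± 0.41 in 6 libraries had an adjusted p of 0.0806, and the 8-library value was 1.04 ± 0.34 (0.118). NR1D1, the paralog of NR1D2, had 0.53 ± 0.45 (0.385) in 6 libraries and 0.55 ± 0.34 (0.281) in 8, with 14.2 to 31.4 RPKM under vehicle and 15.2 to 47.5 under DMOG. The 4 tested E-box output genes WEE1, NAMPT, USP2 and CDKN1A were not called in 6 libraries (adjusted p = 0.290, 0.169, 0.159 and 0.776).

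Of 8 tested relatives in the bHLH-PAS family and their coactivators, 2 fell and 0 rose, against 16.1 and 13.7 percent of all genes, again too few to read a difference from. AHR, the aryl hydrocarbon receptor, stood at 23.1, 18.2, 16.5 and 28.1 RPKM with vehicle and at 5.11, 19.9, 7.43 and 3.67 RPKM with DMOG. DMOG replicates 1, 3 and 4 lay far below every vehicle library and DMOG replicate 2 among them. AHR fell by 1.62 ± 0.24 in 6 libraries (limma adjusted p = 0.00691) and passed in 13 of 13 alternatives of that comparison. In 8 libraries it was at -1.20 ± 0.36 (0.118), with overlapping groups. HIF1A, the HIF alpha subunit whose protein DMOG stabilises, fell at the RNA level by 0.52 ± 0.13 (0.0238) in 6 libraries. Levels there were 58.0 to 73.1 RPKM with vehicle and 32.7 to 43.9 RPKM with DMOG, and DMOG replicate 2 stood at 56.5 RPKM. Its p was 0.0861 and 0.0883 without vehicle replicates 1 and 4 and 0.0908 without DMOG replicate 1. The 8-library value was -0.43 ± 0.13 (0.118). ARNT, the shared partner of HIF and AHR, was at 0.54 ± 0.17 (0.0545) in 6 libraries and 0.43 ± 0.17 (0.144) in 8.

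**Figure D4:**
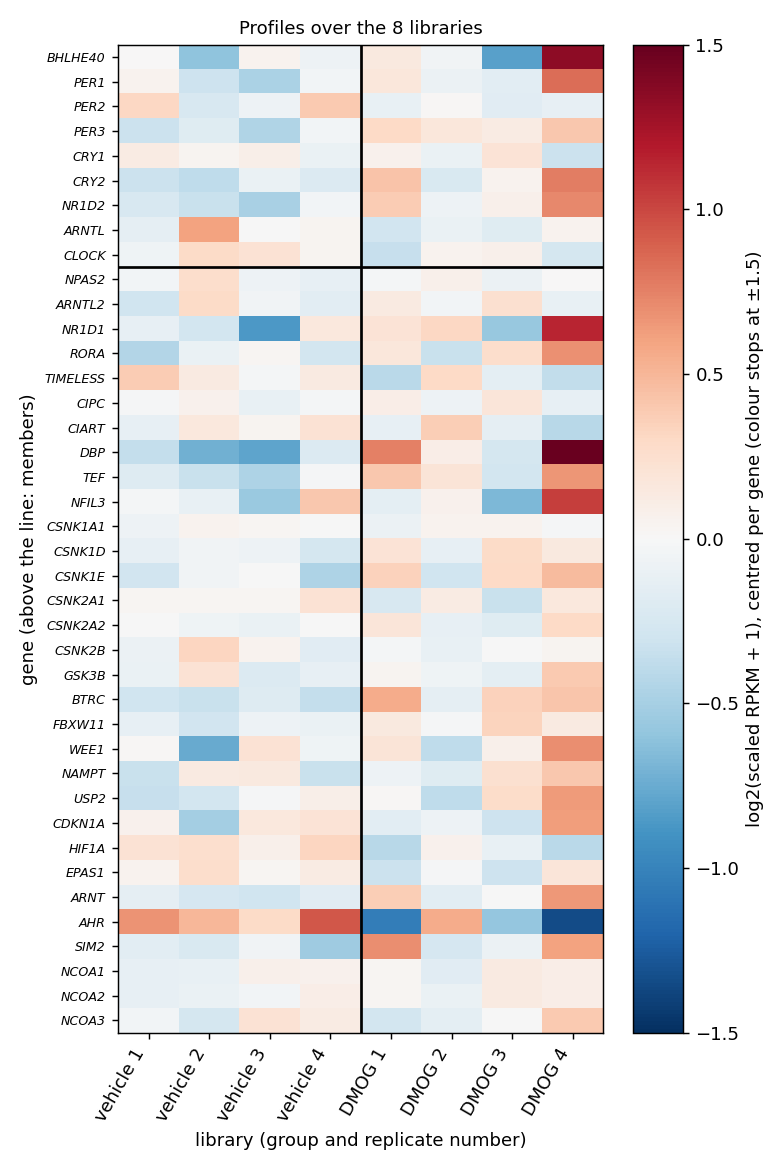
Log2(scaled RPKM + 1) of the 9 tested clock genes (above the line) and of other tested clock pathway genes, centred per gene, in the 8 libraries (columns, vehicle to the left of the line); red is above and blue below the gene's mean, and the colour stops at 1.5 either way. DMOG replicate 4 is the reddest column for BHLHE40, PER1, CRY2 and NR1D2, and AHR is blue in DMOG replicates 1, 3 and 4.

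Among all other tested genes, the profile over 8 libraries most like that of BHLHE40 was that of PGF, with a root-mean-square difference of 0.15 in log2 units, followed by BIK (0.19) and HIST3H2A (0.20). The spread of BHLHE40 itself over the 8 libraries was 0.60 (SD). The nearest profile to PER1 was GAMT (0.06), to PER2 USP19 (0.08), to PER3 LRRC75B (0.09) and to CRY1 NUDT19 (0.05). For CRY2 it was OXR1 (0.04), for NR1D2 PAM (0.03), for ARNTL RFC2 (0.06) and for CLOCK CDK5RAP1 (0.04). These are the closest of 11122 genes over 8 points that share their libraries.

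The authors' deposited table of the same 6 libraries lists all 10 clock genes and has 3 higher and 0 lower at an adjusted p under 0.05. In the authors' deposited table PER3 is at a log2 fold change of 0.75 (adjusted p = 0.00397), CRY2 at 0.80 (0.00663) and NR1D2 at 0.73 (0.00908). PER2 is at -0.40 (0.0693) and BHLHE40 at 0.50 (0.398) in the authors' deposited table, and BHLHE41 at 0.01 (0.994).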

How the data were processed

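The authors deposited RPKM values (per kilobase of the listed length, scaled to each library's total), although the table's name speaks of counts. Whether that total holds only reads in genes was not tested. The tools HTSeq 0.6.1, TopHat2 2.0.13 with Bowtie2 2.2.3.0, Picard 1.129, SAMtools 1.3.1, FastQC 0.11.5 and bcl2fastq are named, per the submitters' processing notes, as are both hg19 and hg38. Gene positions are hg19, as in the deposited table. Strand and multi-mapping rules are not stated in the sources used here. The authors' deposited comparison holds, per the file headers, mean normalized signal by group, the ratio of these means, log2 values of it, p-values and adjusted p. Its direction, DMOG over vehicle, was read from those means, since the headers name no group. Which tool made it was not stated in the sources used here.

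Reads were recovered from RPKM, gene length and the library's step per read, and 100% of values were whole within 0.01 reads. Tests used limma 3.58.1 (R 4.3.3; trend, robust) on log2(RPKM / median-ratio factor + 1), two-sided, over 11122 genes at 1 RPKM or more in at least 4 of 8 libraries. The factors were 0.849 to 1.14 over 8 libraries. Over 6 libraries they were 1.13, 1.08 and 1.14 for vehicle replicates 1, 3 and 4, and 0.923, 0.940 and 0.858 for those of DMOG. They thus differed by group, and dividing by them raised DMOG levels against vehicle levels. Why the factors differed was not tested. Fold changes on this scale understate changes of low genes. Scripts were tested on simulated data. The clock genes, the other lists and the tests were chosen with earlier results of these data known. All 10 clock genes are named, and of the other lists those called and those a result turns on. A gene called among the other lists, counted there, and a cell type marker are not reported here by name.

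Same-numbered libraries deviated from their group means together over 6 libraries (correlations 0.47, 0.40 and 0.34 for numbers 1, 3 and 4), so numbers may pair there. The main tests took no account of such pairing, and the replicate block was run only as an alternative. Over 8 libraries the correlations were 0.07, -0.02, 0.53 and 0.24 for numbers 1 to 4. There vehicle replicate 1 matched DMOG replicate 2 best, and vehicle replicate 2 matched DMOG replicate 1 best. Alternatives were RPKM as deposited, upper-quartile factors, a pseudocount of 0.1, no filter, 0.3 RPKM in 3 libraries, limma-voom on recovered reads, the replicate block and leaving out each library.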

Additional observations from a re-analysis of the deposited data

Results flagged for a closer look

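In 2 of 20 groups of 4 libraries (10 clock genes in both groups) 1 library lay far from the other 3 by Dixon's test, which by chance marks about 1 in 20 groups. This held for vehicle replicate 2 of BHLHE40, at 99.8 RPKM against 162 to 170 in the other vehicle libraries. It also held for DMOG replicate 3 of PER3, at 2.77 RPKM against 3.19 to 3.27 in the other DMOG libraries. The test was run only on RPKM as deposited. On scaled log2 values, centred per gene, PER3 stood at 0.30, 0.17, 0.13 and 0.40 in DMOG replicates 1 to 4. There replicate 3 lay beside replicate 2. BHLHE40 stood at 0.0047, -0.60, 0.050 and -0.079 in vehicle replicates 1 to 4.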

How the results depend on the processing

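In the 6 libraries, 3 clock genes higher and 0 lower became 0 and 3 with RPKM as deposited, 1 higher with upper-quartile factors and 0 higher with no filter. The other clock pathway genes, 5 higher and 3 lower, became 1 and 6 with RPKM as deposited and 11 higher with the replicate block. All genes, 1526 and 1792, became 682 and 3836 with RPKM as deposited. Leaving out each library gave 0 to 3 clock genes higher and 0 to 1 lower, 1 to 9 and 1 to 3 other clock pathway genes, and 379 to 2224 and 539 to 2527 of all genes. The replicate block called the same number of clock genes (3 and 0) and 2181 and 2337 of all genes, and over 8 libraries 0 and 0. In 8 libraries the ranges were 0 to 3 clock genes higher and 0 lower, 0 to 9 and 0 to 3 for the others, and 0 to 1724 and 0 to 1970 for all genes, with the highest of each without DMOG replicate 2. BHLHE40 turned from 0.23 to -0.072 with RPKM as deposited. Leaving out each library moved it from -0.33 (without DMOG replicate 4) to 0.75 in 6 libraries and from -0.079 (without the same library) to 0.64 in 8. CRY1 moved likewise from -0.17 to 0.10 in 6 libraries and from -0.16 to 0.023 in 8, the highest of each without DMOG replicate 4. Leaving out a library leaves fewer samples; the cause of the other shifts was not tested. BHLHE41, at 12 to 54 reads, is limited by depth.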
